A study of Mus musculus with 27 samples.

Results

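Microglia are the resident macrophages of the brain, and in the undisturbed brain they carry a set of genes that sets them apart from other macrophages, the homeostatic identity genes. Members of 1 such set were taken by name from the deposited table of normalised counts. Of 36 genes listed, 35 had a row among 23995 genes, Slc2a5, a fructose transporter gene, had none, and 33 were tested, having 10 normalised counts or more in 3 or more libraries. P2ry12, P2ry13 and Cx3cr1 are not included. The set holds surface proteins (Tmem119, Gpr34, Siglech, Fcrls, Selplg, Cd33, Plxdc2, Susd3, Itgb5), secreted proteins (Olfml3, Sparc, Serpine2), the receptor Csf1r, the receptor Mertk with its ligands Gas6 and Pros1, the TGF-β pathway genes Tgfbr1, Tgfbr2 and Smad3, the transporters and lipid enzymes Slc2a5, Slco2b1, Ltc4s and Lpcat2, the transcription factors Sall1, Sall3, Mef2a, Mef2c, Spi1, Maf, Jun and Egr1, and Golm1, Crybb1, Bin1, Rhob and Rgs10.

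Signals from neighbouring cells hold this programme in place. CSF1 and IL-34 act through CSF1R to keep microglia alive, TGF-β acts through a receptor made of TGFBR1 and TGFBR2, and factors such as PU.1 (Spi1), SALL1 and MEF2 proteins keep the genes on. MERTK, bridged by GAS6 or protein S (Pros1), lets microglia take up dying cells. Ligands of Toll-like receptors, which sense microbial molecules, are known to lower many of these genes in microglia while inflammatory genes rise.

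The cells came from mixed glial cultures of newborn mouse cortex, were shaken off and rested, and were then left unstimulated or stimulated for 16 h. The stimuli were LPS (100 ng/ml, a ligand of TLR4) with interferon-γ (20 ng/ml), PolyI:C (a ligand of TLR3, whose dose is not repeated here), or CpG DNA (1 nmol/ml, a ligand of TLR9). Wild-type cells were from C57BL/6J mice, and the others from mice of strain B6.Cg-Cnr2tm1Zim, labelled CB2-/-, whose allele targets the cannabinoid receptor gene Cnr2. The study asks whether CB2 takes part in microglial activation through these receptors. There were 6 unstimulated wild-type libraries and 3 libraries in each of the other 7 groups. The labels do not say whether replicates came from separate mice or cultures, so p-values speak only of the scatter among libraries, which may be technical.

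Library numbers were split here into separate series, which the labels do not name. One series (3012 to 3023) holds every stimulated wild-type library and the unstimulated replicates 1 to 3. The other holds unstimulated wild-type replicates 4 to 6 (2186 to 2188) and all libraries labelled CB2-/- (2048 to 2059). These are separate blocks of numbers, and the labels do not say whether they were processed together. Wild-type responses were therefore read against replicates 1 to 3, and replicates 4 to 6 served to compare unstimulated genotypes. For stimulated cells genotype and number series cannot be told apart, nor for unstimulated cells genotype and block of numbers. Summed normalised counts ran from 6341299 to 14151982 per library, and the files do not give the number of reads behind them. The highest sum was in PolyI:C replicate 2 labelled CB2-/-, where Gm19220, Gm26822 and Grip2 held 50.8% of it. They held 0.0741 to 20.3% in the other libraries labelled CB2-/- and 6.07 to 31.1% in unstimulated wild-type replicates 4 to 6, but 0.00115 to 0.00454% in the wild-type libraries of the first series. Mitochondrial genes held 0.242 to 0.964%, 0.763 to 1.42% and 1.5 to 3.2% in the same 3 sets, the first with replicate 2 included. Their part in the results was not tested, beyond the counts given without that library. Cnr2 stood at 317 to 454 normalised counts in unstimulated libraries labelled CB2-/- and at 172 to 233 in unstimulated wild-type cells. Stimulated libraries labelled CB2-/- had 217 to 412. Stimulated wild-type cells had far less, at 18.3 to 21.96 with LPS plus interferon-γ. They had 7.32 to 16.2 with PolyI:C and 0 to 16.1 with CpG. The deletion is therefore not visible at the level of the gene, and which part of the transcript the reads came from was not analysed here. Markers of microglia and macrophages (8 of 8 tested) summed to 63310 to 78590 in unstimulated wild-type replicates 1 to 3 and 50780 to 58030 in 4 to 6. With LPS plus interferon-γ, PolyI:C and CpG wild-type sums were 50330 to 52280, 49670 to 62670 and 55860 to 64290. Libraries labelled CB2-/- went from 53220 to 56470 to 28650 to 30500, 38850 to 40670 and 32690 to 33450. In wild-type cells 5, 4 and 5 of these markers were called lower and 3, 3 and 2 higher. In libraries labelled CB2-/- 6, 5 and 6 were lower and 1, 0 and 0 higher. Shares of all tested genes are given below. Astrocyte markers summed to 50.7 to 2674 and fibroblast markers to 1.71 to 3056, and within the wild-type groups left unstimulated or given PolyI:C or CpG both were lowest in replicate 1. Oligodendrocyte lineage markers had lower sums in stimulated cells, as many members did. They summed to 1065 to 1236 in unstimulated wild-type replicates 1 to 3, and to 173 to 222, 163 to 246 and 284 to 671 with LPS plus interferon-γ, PolyI:C and CpG. In libraries labelled CB2-/- they went from 1011 to 1034 to 177 to 215, 508 to 653 and 246 to 293. Of 7 tested, 2 were called lower with each stimulus in wild-type cells, where 18, 19.9 and 19.6% of all tested genes were. There were 2, 1 and 2 such markers in libraries labelled CB2-/-, beside 10.9, 3.44 and 7.44% of all tested genes. The mean log2(value + 1) of these marker genes was 3.84 to 5.03 in unstimulated wild-type replicates 1 to 3. It overlapped that range with LPS plus interferon-γ (3.43 to 4.10) and CpG (1.40 to 5.15), but not with PolyI:C (2.149 to 3.765). The part of these marker genes in the results was not tested except where stated.

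All 3 stimuli lowered most of the set in wild-type cells. With LPS plus interferon-γ 23 of 33 tested members fell and 4 rose, PolyI:C lowered 25 and raised 3, and CpG lowered 25 and raised 3 (limma, Benjamini-Hochberg adjusted p under 0.05). Among all 14668 tested genes 18, 19.9 and 19.6% fell and 21.7, 21.2 and 16.5% rose with the same stimuli. The median log2 fold change over the 33 members was -1.72, -2.03 and -1.72, where the median of all tested genes was 0.05, -0.06 and -0.09. Lower with every stimulus were 22 of the 33 members, where 9.03% of all tested genes were.

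In the libraries labelled CB2-/- fewer members were called lower with PolyI:C than in wild-type cells, and the median fall was smaller. The direction was much the same: the log2 change with PolyI:C was negative for 25 of 33 members there and for 27 in wild-type cells. LPS plus interferon-γ lowered 24 members and raised 4 (10.9% of all tested genes fell and 12.8% rose), CpG lowered 21 and raised 2 (7.44% and 6.82%), and PolyI:C lowered 11 and raised 2 (3.44% and 5.11%). The median log2 fold changes were -1.18, -1.07 and -0.45 in that order, beside all-gene medians of 0.03, 0 and 0.01. Only 10 members were lower with every stimulus (1.52% of all tested genes), and 9 were so in both genotypes (0.995%). Those 9 were Olfml3, Gas6, Pros1, Tgfbr1, Tgfbr2, Mef2a, Golm1, Rgs10 and Itgb5. The PolyI:C count was sensitive to single libraries, at 7 to 12 when each was left out in turn, and came to 16 with the libraries labelled CB2-/- in a fit of their own. It was 7 without unstimulated replicate 1 or 3 or without any 1 of the PolyI:C libraries of these cells, and the number lower with every stimulus then came to 6 in 4 of those fits.

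Stimuli also differed from one another. In wild-type cells 3 members were lower and 6 higher with LPS plus interferon-γ than with PolyI:C (limma, adjusted p under 0.05; 3.91% and 5.35% of all tested genes). Against CpG, LPS plus interferon-γ left 13 lower and 9 higher (13.1% and 19.7%), and PolyI:C left 11 lower and 7 higher (12.5% and 17.6%). Among libraries labelled CB2-/- 16 members were lower and 2 higher with LPS plus interferon-γ than with PolyI:C (4.96% and 6.95%). LPS plus interferon-γ left 5 lower and 2 higher than CpG there (3.82% and 6.36%), and PolyI:C left 1 lower and 12 higher (5.56% and 6.39%).

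**Figure D1:**
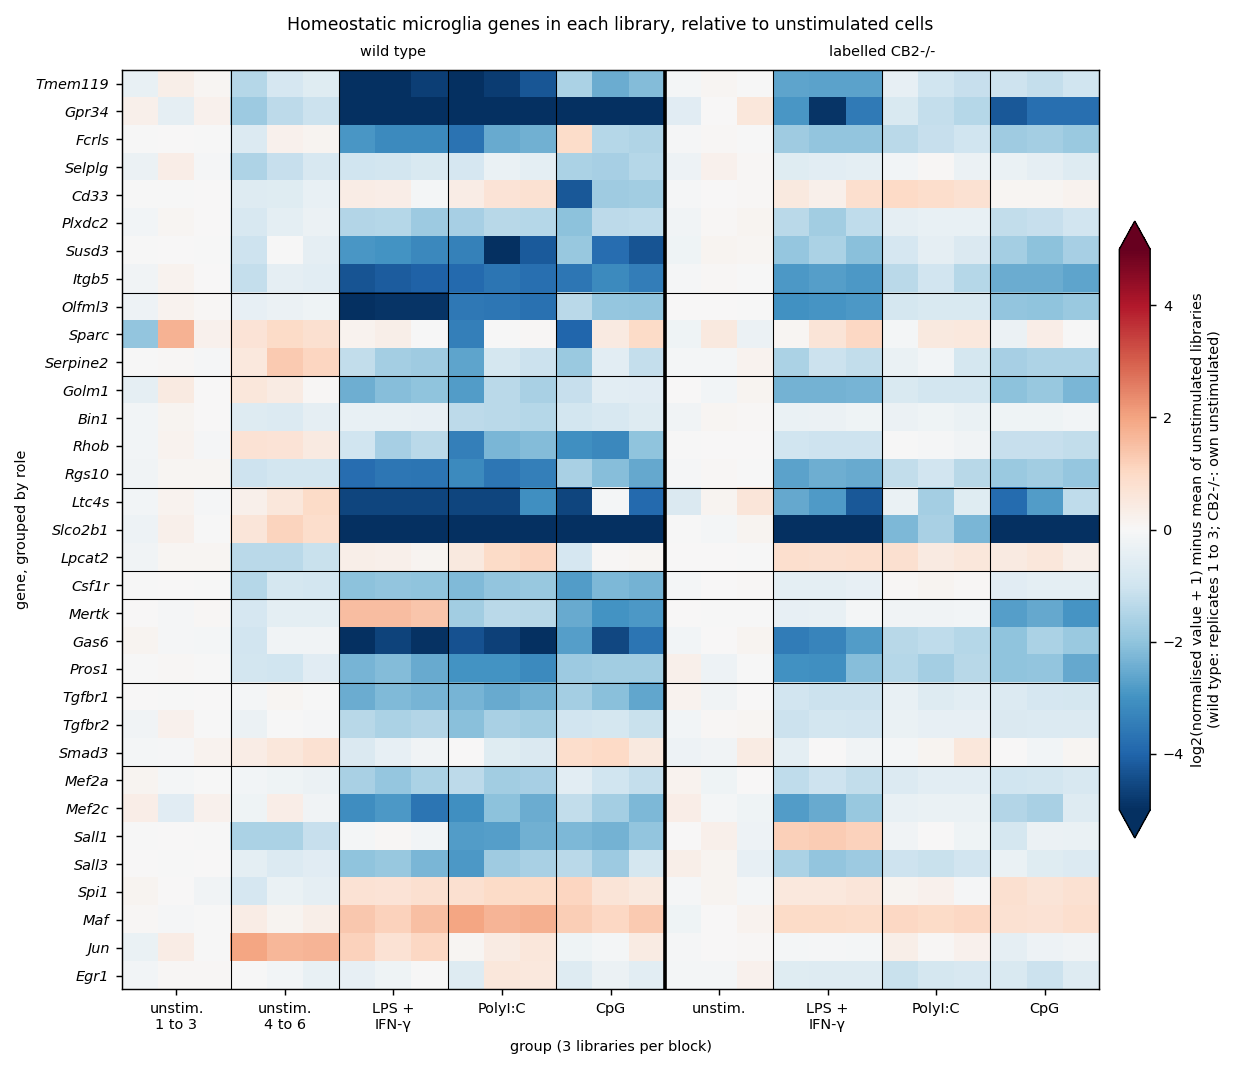
Each row is 1 of the 33 tested genes and each column 1 library, and colour gives log2(normalised value + 1) minus the mean of the unstimulated libraries (replicates 1 to 3 for wild type, the own unstimulated group for CB2-/-), with the scale ending at 5 in either direction. Most rows are blue in all stimulated wild-type blocks and paler in the CB2-/- PolyI:C block, while Maf is red in every stimulated block.

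Among the surface and secreted identity genes, Olfml3 (ENSMUSG00000027848, chr3:103722222-103738001, GRCm38), a secreted olfactomedin-like protein, fell with every stimulus in both genotypes. Unstimulated wild-type cells had 2850, 3862 and 3519 normalised counts. These became 99.0, 113 and 112 with LPS plus interferon-γ, 282, 276 and 257 with PolyI:C, while CpG left 1314, 877 and 866. No stimulated library overlapped the unstimulated ones. Olfml3 fell with log2 changes of -4.96 ± 0.13 (limma, adjusted p = 2.34e-19), -3.64 ± 0.13 (limma, adjusted p = 6.64e-17) and -1.76 ± 0.13 (limma, adjusted p = 6.88e-11), and the LPS response was larger than the CpG response by 3.20 (limma, adjusted p = 7.89e-16). Cells labelled CB2-/- started at 3532, 3480 and 3412 and came to 429 to 476, 1901 to 2037 and 867 to 948. There it fell with log2 changes of -2.95 ± 0.13 (limma, adjusted p = 2.41e-14) with LPS plus interferon-γ, of -0.80 ± 0.13 (limma, adjusted p = 0.000152) with PolyI:C and of -1.94 ± 0.13 (limma, adjusted p = 3.69e-11) with CpG.

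Tmem119 (ENSMUSG00000054675, chr5:113793729-113800516), a transmembrane protein used to tell microglia from other macrophages, lost most of its RNA with LPS plus interferon-γ and PolyI:C. Its wild-type values were 420, 677 and 581 unstimulated, 3.18, 2.96 and 19.8 with LPS plus interferon-γ, 4.50, 19.3 and 27.6 with PolyI:C, and CpG gave 180, 96.8 and 120. Every stimulated library lay below the unstimulated ones and the CpG libraries above the other stimulated ones, while the LPS and PolyI:C groups overlapped. It fell with log2 changes of -6.29 ± 0.52 (limma, adjusted p = 4.03e-10), -5.22 ± 0.52 (limma, adjusted p = 1.07e-08) and -2.09 ± 0.52 (limma, adjusted p = 0.00253), and both of the first responses were larger than that to CpG (limma, adjusted p = 5.57e-07 and 4.47e-05). Without LPS replicate 3 the first value was -7.08, and without PolyI:C replicate 1 the second was -4.51. Against unstimulated replicates 4 to 6 the CpG change was -1.14 and not called (limma, adjusted p = 0.104). In libraries labelled CB2-/- it went from 143 to 166 to 23.2 to 23.7 with LPS plus interferon-γ, a log2 change of -2.66 ± 0.52 (limma, adjusted p = 0.000358). With PolyI:C (68.4 to 116) and CpG (66.3 to 76.9) the changes were -0.85 ± 0.52 (limma, adjusted p = 0.384) and -1.07 ± 0.52 (limma, adjusted p = 0.211), neither called in the fit of all libraries. Both were called when the libraries labelled CB2-/- were fitted alone, at adjusted p = 0.020 and 0.00339 (limma).

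Gpr34 (ENSMUSG00000040229, chrX:13632089-13640858), a receptor for lysophosphatidylserine, dropped to near 0 with each stimulus in wild-type cells. Values of 769, 469 and 740 became 10.2, 4.74 and 2.60 with LPS plus interferon-γ, 7.21, 8.83 and 7.38 with PolyI:C, and CpG gave 0, 5.59 and 3.21. It fell with log2 changes of -6.72 ± 0.60 (limma, adjusted p = 1.59e-09), -6.20 ± 0.60 (limma, adjusted p = 6.53e-09) and -7.74 ± 0.60 (limma, adjusted p = 2.43e-10), the last being -6.94 without CpG replicate 1. Cells labelled CB2-/- had 42.6, 63.6 and 94.0 before and 1.13 to 7.48, 23.1 to 37.4 and 2.41 to 3.76 after LPS plus interferon-γ, PolyI:C and CpG. It fell there with log2 changes of -3.80 ± 0.60 (limma, adjusted p = 2.61e-05) and -3.92 ± 0.60 (limma, adjusted p = 2.97e-05), while PolyI:C gave -1.12 ± 0.60 (limma, adjusted p = 0.302). Both falls differed from the PolyI:C response (limma, adjusted p = 0.00286 and 0.00206), so PolyI:C spared Gpr34 relative to the other stimuli in these cells.

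The other surface members moved by different amounts. Itgb5, an integrin β chain, went from 7471, 9652 and 8618 to 423 to 520, 579 to 686 and 699 to 939 in wild-type cells, falling with log2 changes of -4.17, -3.76 and -3.41 (limma, adjusted p at most 3.80e-14). In libraries labelled CB2-/- it fell with log2 changes of -2.83, -1.23 and -2.52 (limma, adjusted p at most 1.30e-05). Susd3, a sushi-domain protein, fell from 855 to 864 to 90.9 to 112, 26.1 to 81.5 and 41.7 to 227 (log2 changes of -3.05, -4.19 and -3.36; limma, adjusted p at most 1.49e-06), with CpG replicate 1 the highest of its group and the CpG value at -4.08 without it. Plxdc2 fell with log2 changes of -1.56, -1.49 and -1.55 in wild-type cells and of -1.46 and -1.11 with LPS plus interferon-γ and CpG in the libraries labelled CB2-/- (limma, adjusted p at most 4.56e-05).
Selplg, which encodes the P-selectin ligand PSGL-1, changed least among the surface members lower with all stimuli. Its wild-type values were 1556, 2382 and 1815 unstimulated and 958 to 1103, 1045 to 1485 and 600 to 705 stimulated, log2 changes of -0.89, -0.56 and -1.55 (limma, adjusted p = 0.000174, 0.0107 and 1.19e-07). The PolyI:C call was lost without PolyI:C replicate 1 (-0.42) or unstimulated replicate 2 (-0.40). Read against unstimulated replicates 4 to 6 (643 to 1070), the LPS and PolyI:C changes turned positive, at 0.28 and 0.61, and the CpG change came to -0.37 and lost its call (limma, adjusted p = 0.0758).

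Fcrls (ENSMUSG00000015852, chr3:87250758-87263738), an Fc receptor-like scavenger protein, was a selective loss in wild-type cells, a call in which 1 CpG library stood apart. Unstimulated values were 5097, 5326 and 5196, and LPS plus interferon-γ gave 695, 577 and 575 and PolyI:C 400, 912 and 996. CpG gave 9770, 1953 and 1820, so replicate 1 lay above every unstimulated library and the other replicates below all of them. The log2 changes were -3.08 ± 0.40 (limma, adjusted p = 8.33e-07) and -2.87 ± 0.40 (limma, adjusted p = 2.39e-06), and the CpG change was -0.67 ± 0.40 (limma, adjusted p = 0.206). Without CpG replicate 1 Fcrls fell by 1.47 with CpG (limma, adjusted p = 9.39e-05), and the change was also called under quantile scaling (-1.02) and on the batch-corrected values (-1.23). Libraries labelled CB2-/- went from 2303 to 2533 to 606 to 704, 951 to 1194 and 671 to 746, with log2 changes of -1.91 and -1.76 for LPS plus interferon-γ and CpG (limma, adjusted p = 0.000794 and 0.00276). PolyI:C there gave -1.17 ± 0.40 (limma, adjusted p = 0.0733), which passed the threshold when wild-type CpG replicate 1 was left out (limma, adjusted p = 0.00135).

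Cd33, a sialic acid-binding inhibitory receptor, was lowered by CpG alone among the stimuli, and in wild-type cells alone among the genotypes. Its values were 1231, 1220 and 1251 unstimulated, 1164 to 1582 with LPS plus interferon-γ, 1586 to 2106 with PolyI:C, and CpG gave 65.1, 358 and 364. All CpG libraries lay below all others, replicate 1 furthest. The PolyI:C libraries lay above the unstimulated ones, a change of 0.61 that the main fit did not call. It was called higher without the series term (0.88), on the batch-corrected values (0.82) and with library weights (0.68). The same held without the 3 wild-type libraries lowest in astrocyte markers (0.73) and against unstimulated replicates 4 to 6 (1.15). Leaving out CpG replicate 1 also brought the call (limma, adjusted p = 0.000665). With CpG the log2 change was -2.59 ± 0.36 (limma, adjusted p = 4.08e-06), or -1.77 without CpG replicate 1, and the CpG response differed from those to LPS plus interferon-γ and PolyI:C (limma, adjusted p = 1.41e-06 and 2.22e-07). In libraries labelled CB2-/- CpG left it at 796 to 835 from 709 to 772, a change of 0.13 ± 0.36 (limma, adjusted p = 0.908). That difference between the genotypes was 2.71 ± 0.52 (limma, adjusted p = 0.000915), or 1.90 without CpG replicate 1 of wild type.

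Slco2b1 (ENSMUSG00000030737, chr7:99657804-99711340), an organic anion transporter, fell to values near 0 with every stimulus in wild-type cells. Unstimulated wild-type libraries had 820, 1178 and 975. With LPS plus interferon-γ it was listed at 0 in all 3 libraries, so no fold is given. PolyI:C left 8.31, 1.16 and 0 and CpG 7.68, 0 and 6.26, log2 changes of -8.50 ± 0.76 (limma, adjusted p = 1.71e-09) and -7.95 ± 0.76 (limma, adjusted p = 9.36e-09) on the log2(value + 1) scale. These sizes rest on values near 0: the PolyI:C change was -9.38 without replicate 1 and -7.77 without replicate 3, and the CpG change -6.95 without replicate 2. Libraries labelled CB2-/- started at 1283, 1201 and 1404 and came to 5.97, 3.92 and 23.9 with LPS plus interferon-γ and 5.13, 32.1 and 7.36 with CpG, log2 changes of -7.09 ± 0.76 (limma, adjusted p = 8.75e-08) and -6.76 ± 0.76 (limma, adjusted p = 3.39e-07). Without LPS replicate 3 and CpG replicate 2 these were -7.79 and -7.50. After PolyI:C they had 274, 419 and 267, below all 3 unstimulated libraries, a change of -2.04 ± 0.76 (limma, adjusted p = 0.105). That change was called with a pseudocount of 8 (-2.02; limma, adjusted p = 0.000963), with the libraries labelled CB2-/- fitted alone (limma, adjusted p = 0.0371), on the batch-corrected values (-1.74; limma, adjusted p = 0.000252) and without the 3 wild-type libraries lowest in astrocyte markers (limma, adjusted p = 0.0365). The PolyI:C responses of the genotypes differed by 6.45 ± 1.07 (limma, adjusted p = 6.62e-05), or by 7.34 and 5.73 without wild-type PolyI:C replicates 1 and 3.

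Ltc4s, the leukotriene C4 synthase, was low throughout, at 21.2, 26.4 and 22.5 in unstimulated wild-type cells. It was listed at 0 in all wild-type LPS libraries, and stood at 0, 0 and 1.90 with PolyI:C, and CpG gave 0, 21.5 and 0.645. Of these the PolyI:C change was -4.09 ± 0.88 (limma, adjusted p = 0.000514) and the CpG change -2.86 ± 0.88 (limma, adjusted p = 0.0127), the latter lost without CpG replicate 1 (-2.00) or 3 (-2.35) and -4.24 without replicate 2. Lpcat2, an acyltransferase that makes platelet-activating factor, went the other way. Its PolyI:C libraries (2317, 3243 and 3482) all exceeded the unstimulated wild-type ones (1471, 1749 and 1765), a rise of 0.84 ± 0.17 (limma, adjusted p = 0.000361), which came to 0.19 and was not called under quantile scaling. Libraries labelled CB2-/- rose from 792 to 826 to 1428 to 1464 with LPS plus interferon-γ, by 0.83 ± 0.17 (limma, adjusted p = 0.000844), and to 1119 to 1420 with PolyI:C, by 0.61 ± 0.17 (limma, adjusted p = 0.0289). The last call was lost when any of 5 libraries of those groups was left out (0.51 to 0.63).

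The stretch around the start site is shown for a few members that the results turn on. The promoter windows (250 bases before to 50 after the start, RefSeq, GRCm38.p6) show Slco2b1 (chr7:99711291-99711590, - strand), Susd3 (chr13:49248245-49248544, - strand) and Tgfbr2 (chr9:116175314-116175613, - strand), each lower with every stimulus in wild-type cells, and Mertk (chr2:128698665-128698964, + strand), which moved in both directions. Capitals mark the PU box GAGGAA, the core bound by PU.1, and the AP-1 element TGANTCA, both searched on either strand, and the matches shown do not overlap.
Slco2b1: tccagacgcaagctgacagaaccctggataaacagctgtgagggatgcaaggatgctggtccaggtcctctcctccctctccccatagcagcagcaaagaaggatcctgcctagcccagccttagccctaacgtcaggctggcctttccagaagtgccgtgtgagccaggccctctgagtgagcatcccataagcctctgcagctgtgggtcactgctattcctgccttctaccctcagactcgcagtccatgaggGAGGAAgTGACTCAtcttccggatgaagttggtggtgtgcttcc
Susd3: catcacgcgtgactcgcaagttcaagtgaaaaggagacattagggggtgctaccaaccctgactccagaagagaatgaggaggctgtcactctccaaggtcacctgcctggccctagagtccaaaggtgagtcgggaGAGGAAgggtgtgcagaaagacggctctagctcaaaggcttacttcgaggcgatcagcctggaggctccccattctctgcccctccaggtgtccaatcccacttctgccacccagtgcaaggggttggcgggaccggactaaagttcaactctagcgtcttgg
Tgfbr2: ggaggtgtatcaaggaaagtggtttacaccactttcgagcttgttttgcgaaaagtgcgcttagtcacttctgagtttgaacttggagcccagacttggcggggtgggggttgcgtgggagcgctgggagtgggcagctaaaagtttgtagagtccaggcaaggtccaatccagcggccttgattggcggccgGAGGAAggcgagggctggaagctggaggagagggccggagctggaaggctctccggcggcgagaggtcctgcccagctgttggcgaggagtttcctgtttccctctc
Mertk: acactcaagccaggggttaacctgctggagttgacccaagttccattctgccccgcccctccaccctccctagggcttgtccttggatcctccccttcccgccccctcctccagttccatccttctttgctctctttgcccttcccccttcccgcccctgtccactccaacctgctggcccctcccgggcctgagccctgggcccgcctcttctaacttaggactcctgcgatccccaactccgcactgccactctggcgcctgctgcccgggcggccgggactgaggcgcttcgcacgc
Windows were found for 26 of 36 members, 33 windows in all. The PU box was in 13 of them (39.4%) and in 28.3% of all 32851 RefSeq windows of that length. AP-1 was in 2 (6.06%, 7.81% of all windows), the MEF2 element in 2 (6.06%, 3.69%) and the interferon-stimulated response element in 0 (3.44% of all). The windows shown do not stand for the set. Windows of Olfml3, Gas6, Pros1, Rgs10, Itgb5, Golm1, Rhob and Serpine2 held no PU box. These members were also lower with every stimulus in wild-type cells. Tgfbr1, Mef2a, Mef2c and Ltc4s, of the same class, held it in at least 1 window. Of the selective losses, Cd33 and Fcrls held it and Sall1 did not. All of these are matches of letters in windows, not measured sites.

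CSF1R, the receptor for CSF1 and IL-34, fell with each stimulus in wild-type cells, furthest with CpG. Csf1r values were 35540, 36201 and 35754 unstimulated, 8719, 9010 and 8870 with LPS plus interferon-γ, 7721, 9226 and 9530 with PolyI:C, and CpG gave 5154, 7467 and 7006. No stimulated wild-type library came near these unstimulated ones. Unstimulated replicates 4 to 6 had 13229, 19499 and 19031, nearer to the stimulated wild-type libraries but still above all of them. The log2 changes were -2.01 ± 0.13 (limma, adjusted p = 4.37e-12), -2.03 ± 0.13 (limma, adjusted p = 3.91e-12) and -2.47 ± 0.13 (limma, adjusted p = 2.60e-13), and CpG lowered it more than either other stimulus (limma, adjusted p = 0.00798 and 0.0108). The libraries labelled CB2-/- started from 11533, 12464 and 12776 and reached 8687, 8675 and 9291 with LPS plus interferon-γ and 8345, 8701 and 8647 with CpG. It fell there with log2 changes of -0.46 ± 0.13 (limma, adjusted p = 0.0095) and -0.52 ± 0.13 (limma, adjusted p = 0.00644). Both calls were lost without the series term (limma, adjusted p = 0.246 and 0.26) and on the authors' batch-corrected values (limma, adjusted p = 0.0953 and 0.102). With PolyI:C these libraries stayed at 12872, 13445 and 12586, and no change was called. After LPS plus interferon-γ the levels of both genotypes overlapped, whereas the unstimulated ones did not. The nearest unstimulated libraries were wild-type replicate 4 at 13229 and replicate 3 labelled CB2-/- at 12776.

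The receptor Mertk (ENSMUSG00000014361, chr2:128698956-128802894) moved in opposite directions with different stimuli in wild-type cells. In wild-type cells it went from 1472, 1393 and 1511 to 4229, 4291 and 3762 with LPS plus interferon-γ. It came down to 441, 573 and 557 with PolyI:C, and CpG gave 256, 181 and 200, and no 2 of these groups overlapped. On the log2 scale it rose by 1.49 ± 0.14 (limma, adjusted p = 2.65e-09) with LPS plus interferon-γ and fell by 1.49 ± 0.14 (limma, adjusted p = 2.76e-09) with PolyI:C, and with CpG it fell by 2.79 ± 0.14 (limma, adjusted p = 8.29e-14). Among libraries labelled CB2-/- the unstimulated values were 790, 765 and 762, with 585 to 725 after LPS plus interferon-γ, 678 to 701 after PolyI:C and 112, 132 and 98.1 after CpG. With CpG it fell by 2.76 ± 0.14 (limma, adjusted p = 3.80e-13), while LPS plus interferon-γ gave -0.28 ± 0.14 (limma, adjusted p = 0.151) and PolyI:C -0.16 ± 0.14 (limma, adjusted p = 0.563). The LPS response differed between the genotypes by -1.77 ± 0.19 (limma, adjusted p = 6.70e-07), and the CpG responses by 0.03 ± 0.19 (limma, adjusted p = 0.949).

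Both MERTK ligands fell with every stimulus in both genotypes. Gas6 had 1809, 1587 and 1549 in unstimulated wild-type cells, 51.7, 66.1 and 52.3 with LPS plus interferon-γ, 80.2, 63.5 and 46.4 with PolyI:C, and CpG gave 243, 68.6 and 130. The log2 changes were -4.84 ± 0.31 (limma, adjusted p = 3.48e-12), -4.71 ± 0.31 (limma, adjusted p = 5.75e-12) and -3.66 ± 0.31 (limma, adjusted p = 1.09e-09). Libraries labelled CB2-/- started lower, at 415, 460 and 501, and fell with log2 changes of -3.20, -1.35 and -1.81 with LPS plus interferon-γ, PolyI:C and CpG (limma, adjusted p at most 0.00562), to 39.5 to 65.3, 172 to 190 and 114 to 153. Pros1 went from 1019, 1084 and 1029 to 182 to 232, 114 to 131 and 292 to 313 in wild-type cells, and from 529, 369 and 433 to 52.2 to 99.4, 135 to 167 and 73.1 to 110 in the libraries labelled CB2-/-. Its log2 changes were -2.34, -3.05 and -1.77 in wild-type cells and -2.74, -1.50 and -2.18 in the others (limma, adjusted p at most 2.99e-05). Receptor and ligands therefore parted with LPS plus interferon-γ in wild-type cells, Mertk rising as Gas6 and Pros1 fell.

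The TGF-β receptor genes fell together. Tgfbr1, the signalling chain, had 2016, 1982 and 2009 in unstimulated wild-type cells and 356, 428 and 396, 401, 344 and 386 and 612, 476 and 326 with LPS plus interferon-γ, PolyI:C and CpG. It fell with log2 changes of -2.35 ± 0.15 (limma, adjusted p = 3.48e-12), -2.41 ± 0.15 (limma, adjusted p = 2.21e-12) and -2.13 ± 0.15 (limma, adjusted p = 4.19e-11). Tgfbr2, the ligand-binding chain, went from 2322 to 3042 to 887 to 1016, 624 to 872 and 1233 to 1442, with log2 changes of -1.48, -1.80 and -0.97 (limma, adjusted p at most 3.07e-07). For libraries labelled CB2-/- Tgfbr1 changed by -1.04, -0.51 and -0.81 and Tgfbr2 by -0.99, -0.38 and -0.70. All 6 were called, the PolyI:C values at limma adjusted p = 0.0325 and 0.0414. Those PolyI:C calls were lost in 4 and 11 of the fits that left out 1 library (values of -0.51 to -0.43 and -0.41 to -0.33). Smad3, which carries the signal to the nucleus, was less settled. With CpG it rose from 402, 411 and 493 to 801, 874 and 601, by 0.79 ± 0.21 (limma, adjusted p = 0.00464), while LPS plus interferon-γ and PolyI:C gave -0.44 ± 0.21 (limma, adjusted p = 0.103) and -0.44 ± 0.21 (limma, adjusted p = 0.103). Without PolyI:C replicate 1 the last was -0.66 (limma, adjusted p = 0.0174). The CpG rise came to 0.23 against unstimulated replicates 4 to 6 (limma, adjusted p = 0.438), and its call was also lost without the series term (0.51) and with library weights (0.54). Under the same 3 settings the LPS and PolyI:C changes were called lower (limma, adjusted p at most 0.0065). They were also called, both of them, under quantile scaling and on the batch-corrected values, and the PolyI:C change without the 3 wild-type libraries lowest in astrocyte markers. No Smad3 change was called in the libraries labelled CB2-/-.

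The transcription factors split. Sall1 (ENSMUSG00000031665, chr8:89027235-89044162), a zinc-finger factor needed for microglial identity, was a selective loss. Wild-type values were 594, 612 and 588 unstimulated and 560, 620 and 538 with LPS plus interferon-γ, which overlap. With PolyI:C they were 84.9, 88.1 and 113 and with CpG 125, 115 and 152, log2 changes of -2.65 ± 0.18 (limma, adjusted p = 9.10e-12) and -2.19 ± 0.18 (limma, adjusted p = 5.36e-10), and the LPS response differed from both (limma, adjusted p = 3.69e-10 and 8.28e-10). Among libraries labelled CB2-/- LPS plus interferon-γ brought it from 149, 174 and 123 to 342, 354 and 329, a rise of 1.21 ± 0.18 (limma, adjusted p = 1.07e-05). PolyI:C and CpG gave -0.13 ± 0.18 (limma, adjusted p = 0.759) and -0.50 ± 0.18 (limma, adjusted p = 0.0644) there, the latter -0.63 without unstimulated replicate 3 (limma, adjusted p = 0.0359). LPS plus interferon-γ thus left more Sall1 than either other stimulus in both genotypes (limma, adjusted p = 8.09e-06 and 1.50e-07 in the libraries labelled CB2-/-). Unstimulated wild-type replicates 4 to 6 had 198, 197 and 270, below every wild-type LPS library. With them as the starting level the LPS responses of the genotypes differed by -0.17, which was not called (limma, adjusted p = 0.773).

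Sall3, a relative of Sall1, lacked that pattern and fell with all stimuli in wild-type cells, from 208 to 217 to 43.3 to 56.8, 28.3 to 69.6 and 60.4 to 117 (log2 changes of -2.06, -2.08 and -1.34; limma, adjusted p at most 0.000758), the last being -0.76 and uncalled against unstimulated replicates 4 to 6. Mef2a, of the myocyte enhancer factor family, fell with log2 changes of -1.72, -1.57 and -0.89 in wild-type cells and of -1.18, -0.60 and -0.90 in libraries labelled CB2-/- (limma, adjusted p at most 0.00873), the PolyI:C value of the latter being -0.50 and uncalled without unstimulated replicate 1. Its relative Mef2c had 1127, 595 and 1029 in unstimulated wild-type cells and 69.7 to 121, 105 to 213 and 187 to 377 with LPS plus interferon-γ, PolyI:C and CpG. It fell with log2 changes of -3.20, -2.52 and -1.72 (limma, adjusted p at most 0.000125). For libraries labelled CB2-/- Mef2c went from 393 to 568 to 65.6 to 122 with LPS plus interferon-γ, a log2 change of -2.40 (limma, adjusted p = 2.23e-06). PolyI:C left it at 356 to 362, a change of -0.34 ± 0.32 (limma, adjusted p = 0.616), and the responses differed (limma, adjusted p = 5.44e-05).

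Maf (ENSMUSG00000055435, chr8:115682942-115707794), which encodes c-MAF, rose with all 3 stimuli in both genotypes. Its wild-type values were 1673, 1540 and 1560 unstimulated, 4027, 3577 and 4497 with LPS plus interferon-γ, 6231, 5226 and 5383 with PolyI:C, and CpG gave 3689, 3217 and 3900. No stimulated library overlapped the unstimulated ones, and PolyI:C gave the highest values. The rises were 1.34 ± 0.10 (limma, adjusted p = 1.56e-10), 1.81 ± 0.10 (limma, adjusted p = 5.89e-13) and 1.17 ± 0.10 (limma, adjusted p = 2.88e-09). Libraries labelled CB2-/- went from 1665, 1934 and 2180 to 3653 to 3718, 3692 to 3964 and 3203 to 3439, rises of 0.94, 1.01 and 0.78 (limma, adjusted p at most 4.78e-06). Among all tested genes 9.49% were higher with every stimulus in wild-type cells, 2.33% in libraries labelled CB2-/- and 1.62% in both.

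Spi1 (ENSMUSG00000002111, chr2:91082390-91115756), the gene of PU.1, was higher with all 3 stimuli in wild-type cells on the deposited scale. Values of 2810, 2633 and 2295 became 4113 to 4519, 4480 to 5015 and 3634 to 5425, with log2 changes of 0.74, 0.91 and 0.74 (limma, adjusted p = 6.13e-05, 3.75e-06 and 8.38e-05). Under quantile scaling the LPS change turned to -0.07 and the PolyI:C change came to 0.07, neither called, while the CpG call held. Among libraries labelled CB2-/- Spi1 went from 1481, 1693 and 1436 to 2221 to 2313 with LPS plus interferon-γ and 2424 to 2677 with CpG, by 0.56 ± 0.13 (limma, adjusted p = 0.00234) and 0.74 ± 0.13 (limma, adjusted p = 0.000216), the first at 0.28 and uncalled under quantile scaling. PolyI:C gave 0.10 ± 0.13 (limma, adjusted p = 0.732) there.

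**Figure D2:**
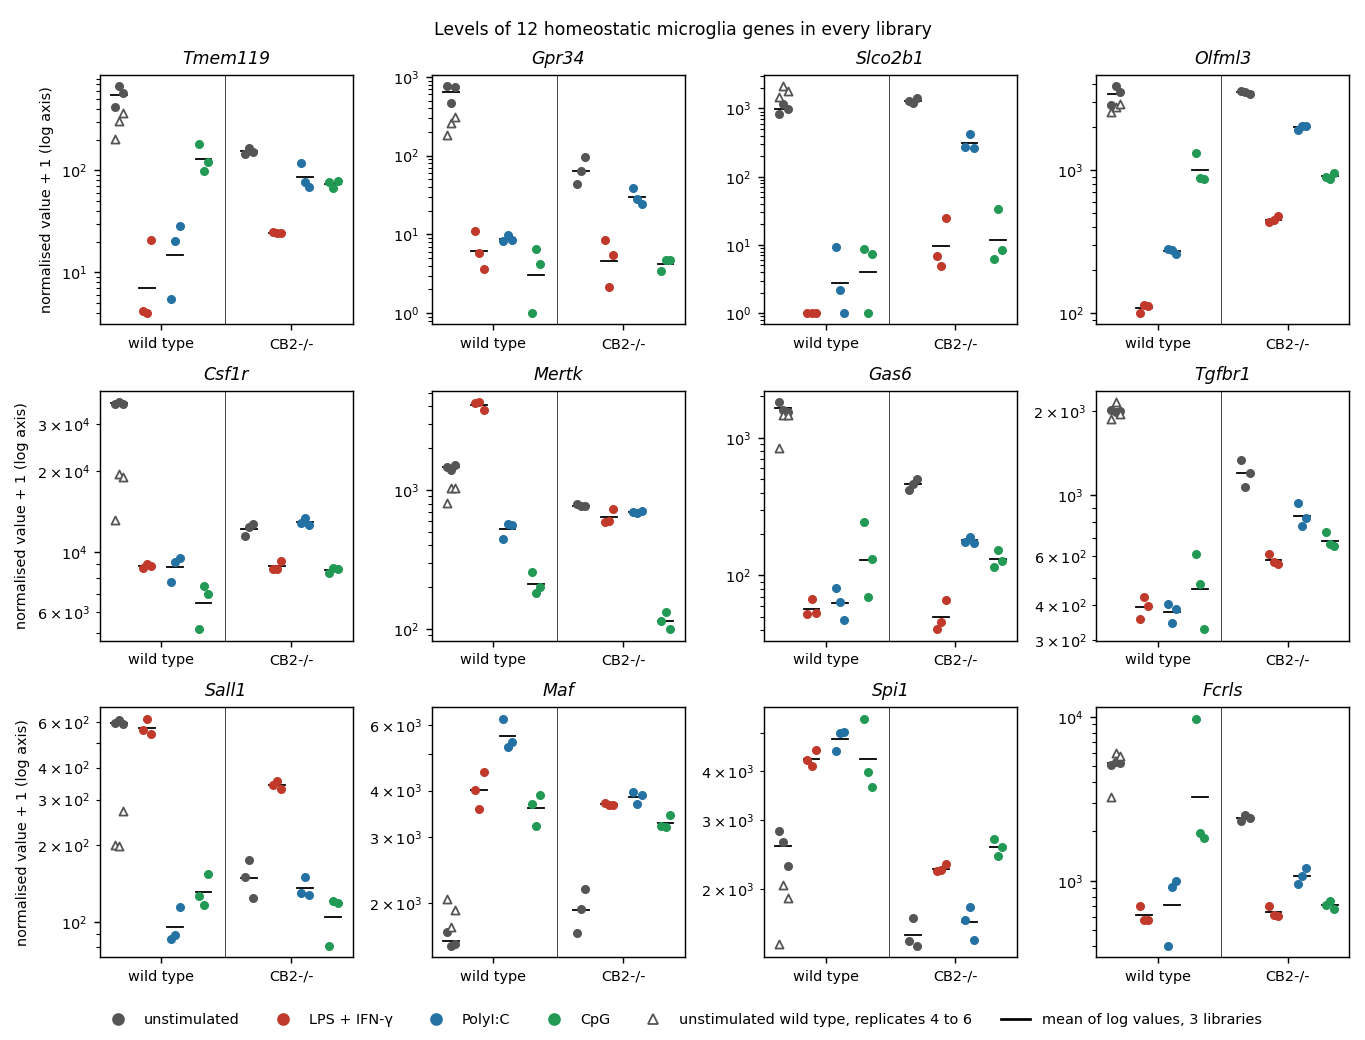
Points are the normalised values plus 1 of 12 genes in single libraries, on a log axis, with stimuli in colour, wild type left and CB2-/- right, bars at the mean of the log values of 3 libraries, and open triangles for unstimulated wild-type replicates 4 to 6. Slco2b1 and Gpr34 reach the bottom of the axis in stimulated wild-type cells but not in CB2-/- cells with PolyI:C, Mertk lies above its unstimulated values with LPS plus interferon-γ in wild type, and 1 Fcrls library with CpG stands at 9770.

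Jun and Egr1, immediate-early factors that respond within minutes to many signals, had few calls at 16 h. Jun had 222, 356 and 271 in unstimulated wild-type cells of the same series as the stimulated ones and 620, 461 and 567 with LPS plus interferon-γ, a rise of 0.97 ± 0.16 (limma, adjusted p = 3.54e-05). Unstimulated wild-type replicates 4 to 6 had 1081, 883 and 909, above all of these, and against them the LPS change turned to -0.81. All libraries labelled CB2-/- lay between 702 and 1169, with no call. Egr1 was not called in wild-type cells, where it ran from 163 to 382 over all stimulated libraries. For libraries labelled CB2-/- it fell from 205, 205 and 256 to 141 to 146, 103 to 127 and 105 to 141, with log2 changes of -0.63 ± 0.23 (limma, adjusted p = 0.0481), -0.93 ± 0.23 (limma, adjusted p = 0.0102) and -0.83 ± 0.23 (limma, adjusted p = 0.0133). The PolyI:C and CpG calls were lost without unstimulated replicate 3 (-0.82 and -0.72), the first also without PolyI:C replicate 1 (-0.84) and the second without CpG replicate 2 (-0.71) of these cells, and that with LPS plus interferon-γ in 20 of the 27 fits without 1 library.

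Of the remaining members, Rgs10, which switches off G protein signalling, and Golm1, a Golgi membrane protein, were lower with every stimulus in both genotypes. Rgs10 went from 1417, 1680 and 1676 to 112 to 129, 130 to 175 and 271 to 512 in wild-type cells (log2 changes of -3.69, -3.40 and -2.10) and from 632, 674 and 647 to 100 to 121, 252 to 337 and 169 to 195 in libraries labelled CB2-/- (-2.55, -1.18 and -1.84; limma, adjusted p at most 4.95e-05 for all 6). Golm1 changed by -2.19, -1.91 and -0.74 in wild-type cells and -2.36, -0.86 and -2.08 in the others. Its wild-type CpG call (limma, adjusted p = 0.031) was lost without CpG replicate 1 (-0.53), unstimulated replicate 2 (-0.51) or 3 (-0.73), and its CB2-/- PolyI:C call (limma, adjusted p = 0.0418) in 12 fits without 1 library. Rhob, a small GTPase, fell from 963 to 1182 to 331 to 527, 96.7 to 233 and 110 to 256 in wild-type cells (-1.32, -2.62 and -2.78; limma, adjusted p at most 0.000189). Libraries labelled CB2-/- kept 1706 to 1915 with PolyI:C from 1890 to 1957, a change of -0.08 ± 0.26 (limma, adjusted p = 0.91), and fell with log2 changes of -1.02 and -1.18 with LPS plus interferon-γ and CpG (limma, adjusted p = 0.00463 and 0.00196). Bin1, which shapes membranes, fell with log2 changes of -0.38, -1.36 and -0.79 in wild-type cells (limma, adjusted p at most 0.00276), the first turning to 0.21 against unstimulated replicates 4 to 6. The CpG change was then -0.20 and not called (limma, adjusted p = 0.0982).

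Serpine2 and Sparc, secreted proteins that astrocytes and fibroblasts also make, varied with the libraries. Serpine2, a protease inhibitor, fell with log2 changes of -1.57, -1.52 and -1.20 in wild-type cells (limma, adjusted p at most 0.00781), from 481, 511 and 472 to 208, 149 and 142, 78.4, 267 and 233 and 133, 341 and 211. Its CpG call was lost without CpG replicate 1 (-0.86). Sparc, a matrix-associated protein, had 88.8, 1161 and 404 unstimulated, 31.6, 342 and 365 with PolyI:C, and CpG gave 21.3, 473 and 679, so replicate 1 was the lowest of each group. The same libraries were the lowest in astrocyte markers, whose sums ran from 205 to 1077, from 50.7 to 585 and from 100 to 1415 over the libraries of these 3 groups. No Sparc change was called in any stimulus comparison.

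Siglech, a sialic acid-binding lectin of microglia, and Crybb1, a crystallin gene, did not reach the minimum for testing. Siglech did not exceed 7.48 normalised counts in any of 27 libraries and Crybb1 did not exceed 2.78. In unstimulated cells Siglech was above 0 in all 3 libraries labelled CB2-/- (0.908, 3.06 and 1.65) and in wild-type replicates 4 and 6 (2.57 and 0.842), and Crybb1 in wild-type replicates 3 and 4 (1.84 and 1.05).

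**Figure D3:**
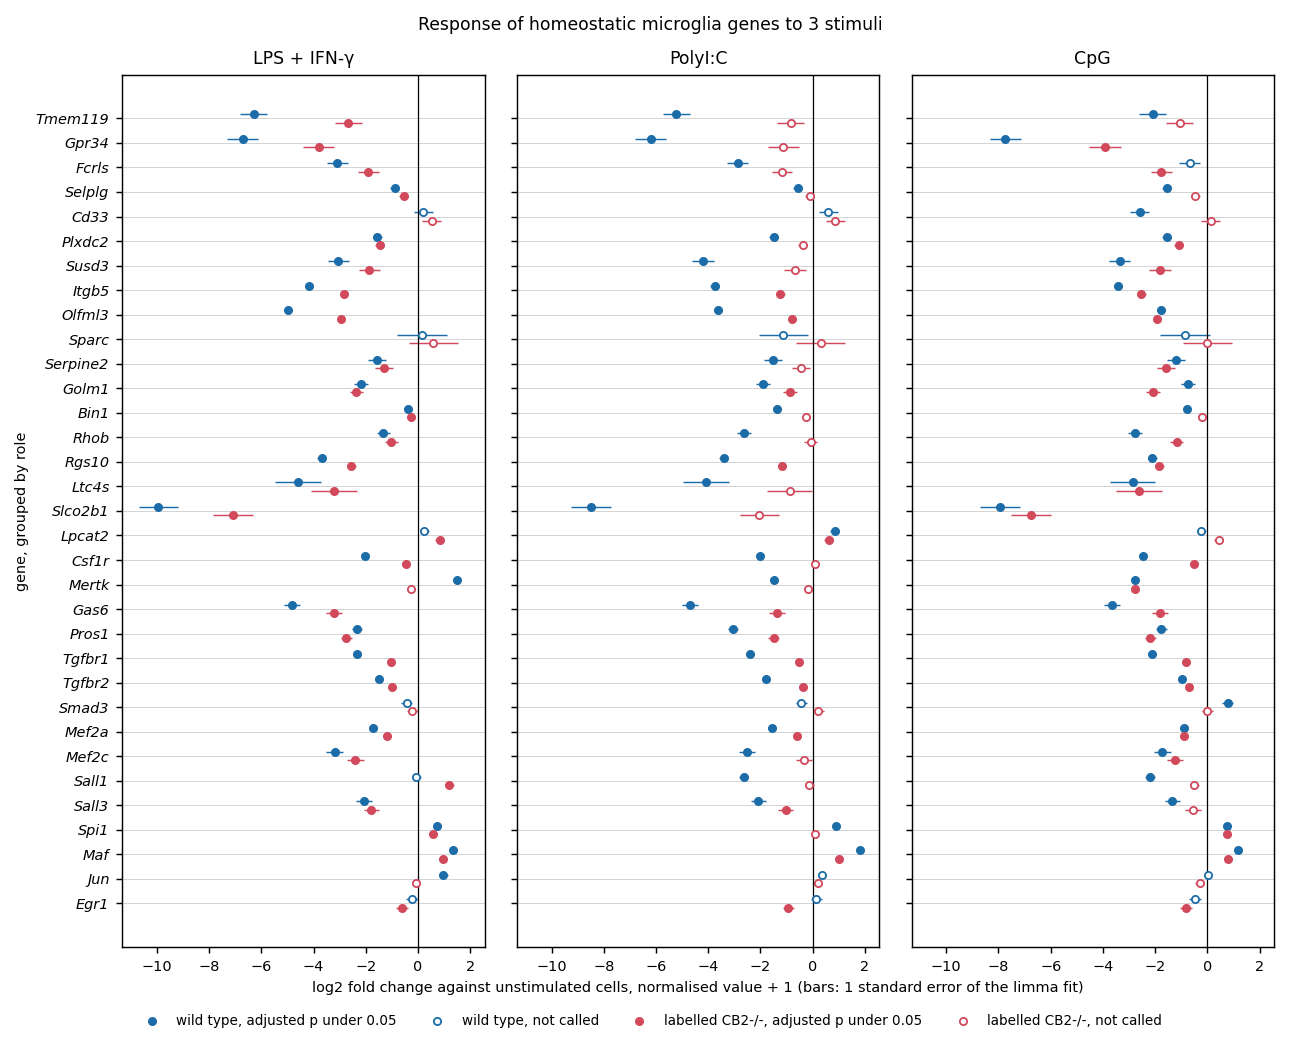
Points are log2 fold changes of the 33 tested genes against unstimulated cells for each stimulus, with bars of 1 standard error, blue for wild type and red for CB2-/-, filled where the adjusted p was under 0.05. With PolyI:C most red points lie nearer to 0 than the blue ones, and Maf lies right of 0 in all 3 panels; the wild-type LPS point of Spi1 turns to -0.07 under quantile scaling.

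Differences between the genotypes in the response itself were most frequent for PolyI:C. The fall was smaller, or a rise larger, in the libraries labelled CB2-/- for 21 members with PolyI:C and the reverse held for 3, while 10.8% and 13.9% of all tested genes were called in these directions. Without PolyI:C replicate 2 labelled CB2-/-, where 3 genes held 50.8% of the counts, the numbers were 19 and 3. With LPS plus interferon-γ 9 and 2 members were called (3.98% and 8.36% of all tested genes), and with CpG 10 and 1 (6.11% and 5.66%). The median differences were 0.49, 1.43 and 0.47 for LPS plus interferon-γ, PolyI:C and CpG, where all tested genes had -0.02, 0.08 and 0.10. All 21 members with the PolyI:C difference were among the 25 that PolyI:C lowered in wild-type cells. Gpr34, Csf1r, Gas6, Tgfbr1, Sall1 and Itgb5 were called in this direction with all 3 stimuli. The share of all tested genes so called was not computed. Among these members only Tgfbr1 kept all 3 calls when unstimulated wild-type replicates 4 to 6 served as the starting level. For Csf1r the differences were 1.55, 2.11 and 1.96 (limma, adjusted p at most 2.15e-06), for Tgfbr1 1.31, 1.90 and 1.32 (limma, adjusted p at most 0.000147), and for Gas6 1.64, 3.36 and 1.85 (limma, adjusted p at most 0.0127). The Gpr34 difference with LPS plus interferon-γ, 2.92 (limma, adjusted p = 0.0232), was lost in 6 fits without 1 library. The number of members called higher for LPS plus interferon-γ ran from 8 to 14 over such fits, with 14 reached without wild-type CpG replicate 1.

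These differences depend on which unstimulated wild-type libraries serve as the starting level. Between replicates 4 to 6 and 1 to 3, the same genotype and condition, 11 members were lower and 1 higher (5.66% and 6.33% of all tested genes). The lower ones included Sall1 (197 to 270 against 588 to 612, -1.44 ± 0.18; limma, adjusted p = 3.47e-06) and Csf1r (13229 to 19499 against 35540 to 36201, -1.08 ± 0.13; limma, adjusted p = 2.59e-06). Lpcat2 (-1.28), Selplg (-1.17), Rgs10 (-0.95), Pros1 (-0.83) and Itgb5 (-0.73) were also lower (limma, adjusted p at most 0.00831), and Jun was the higher one (1.78; limma, adjusted p = 6.53e-08). Of the 21 members with the PolyI:C difference, 8 were lower in replicates 4 to 6 and 9 were called neither there nor between the unstimulated genotypes. Those 9 were Tmem119, Olfml3, Fcrls, Tgfbr2, Mef2c, Golm1, Rhob, Slco2b1 and Susd3. With replicates 4 to 6 as the starting level, a choice added after seeing the data, PolyI:C gave 22 members in that direction and 5 in the other, but Fcrls (1.58), Pros1 (0.72) and Plxdc2 (0.58) lost the call (limma, adjusted p = 0.052, 0.0927 and 0.0993). LPS plus interferon-γ then gave 5 and 5, and CpG 6 and 1. Shares of all tested genes were not computed for this starting level, so these counts have no such measure beside them. The differences for Gpr34 with LPS plus interferon-γ (1.53) and CpG (2.42), Gas6 with LPS plus interferon-γ (1.21), Csf1r with LPS plus interferon-γ (0.48), Sall1 with LPS plus interferon-γ (-0.17) and CpG (0.25), Rgs10 with LPS plus interferon-γ (0.19), Itgb5 with LPS plus interferon-γ (0.61) and CpG (0.16), and with CpG Selplg (-0.0949), Bin1 (0.0131) and Golm1 (-0.997) were then not called.

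Unstimulated cells labelled CB2-/- had less of 8 members than unstimulated wild-type replicates 4 to 6, and more of 0 (3.65% of all tested genes were lower and 6.25% higher; limma). Gas6 had 415, 460 and 501 against 837, 1469 and 1468, with no overlap, a difference of -1.41 ± 0.31 (limma, adjusted p = 0.0037). Gpr34 had 42.6, 63.6 and 94.0 against 181, 262 and 308, also without overlap (-1.93 ± 0.60; limma, adjusted p = 0.0411). Tgfbr1 had 1334, 1068 and 1203 against 1881, 2157 and 1957 (-0.74 ± 0.15; limma, adjusted p = 0.00188). The others were Plxdc2 (-0.71), Itgb5 (-0.69), Mef2a (-0.59), Sall1 (-0.57) and Csf1r (-0.47), at limma adjusted p of 0.00604 to 0.0417. The count was 4 to 12 when 1 library was left out (4 without unstimulated CB2-/- replicate 1 or wild-type replicate 5 or 6, and 5 without CB2-/- replicate 2), and the Gas6 and Tgfbr1 calls were the ones that held in all of these fits. More members were called lower without the series term, with library weights and on the batch-corrected values. Shares of all tested genes were not computed for those settings. Astrocyte markers summed to 211 to 310 in these libraries labelled CB2-/- and to 1600 to 2674 in wild-type replicates 4 to 6. In bulk RNA fewer cells of a type and less RNA per cell cannot be told apart. Genotype and block of library numbers cannot be told apart here either.

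**Figure D4:**
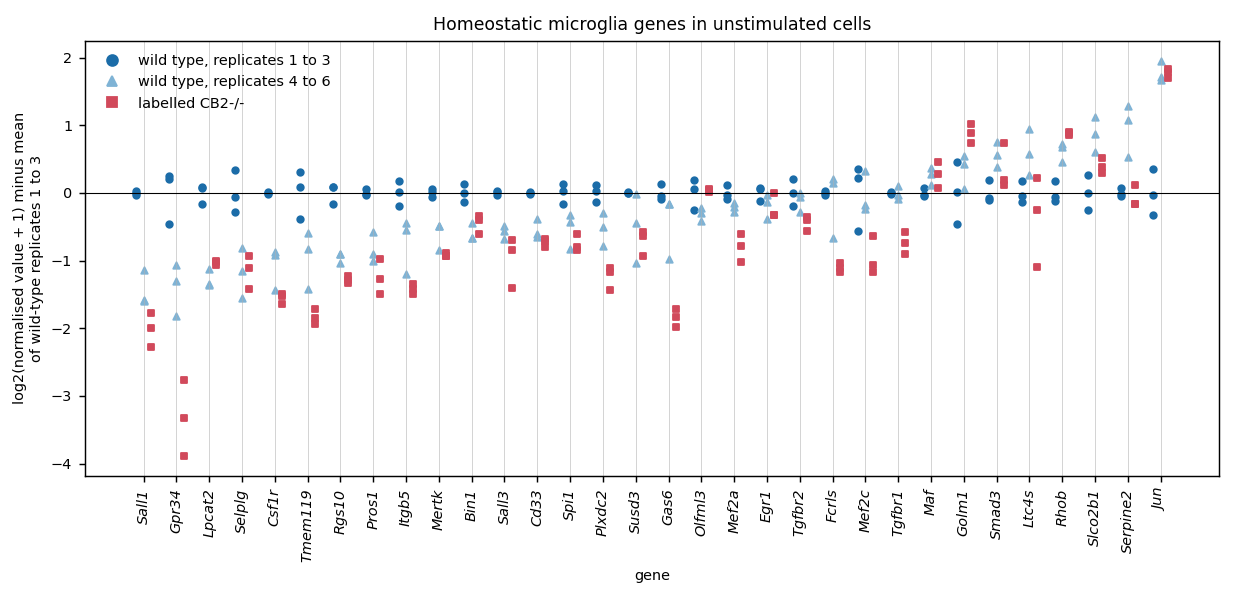
Points are single unstimulated libraries, plotted as log2(normalised value + 1) minus the mean of wild-type replicates 1 to 3, for 32 genes in the order of their difference between the sets of wild-type libraries (Sparc, which varies most, is left out). Sall1, Csf1r and Selplg lie below 0 in wild-type replicates 4 to 6 as well as in libraries labelled CB2-/-, Gas6 and Tgfbr1 mainly in libraries labelled CB2-/-, and Jun lies above 0 in both.

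Other genes of the same pathways, from lists drawn up for this work, are given as counts, to be read against the shares of all tested genes: 18, 19.9 and 19.6% fell with LPS plus interferon-γ, PolyI:C and CpG in wild-type cells and 10.9, 3.44 and 7.44% in libraries labelled CB2-/-. The shares that rose in wild-type cells were 21.7, 21.2 and 16.5%. On the CSF1R and PU.1 axis 8, 7 and 11 of 15 tested genes fell with LPS plus interferon-γ, PolyI:C and CpG in wild-type cells and 5, 1 and 1 rose. Cebpa, a myeloid transcription factor, fell with log2 changes of -4.75, -4.58 and -3.49 there and of -3.13, -1.22 and -2.62 in libraries labelled CB2-/- (limma, adjusted p at most 3.23e-06). On the TGF-β axis 5 of 17 fell with each stimulus in wild-type cells and 1 rose, and 5, 0 and 4 fell in libraries labelled CB2-/-. Smad7, an inhibitor of the pathway that TGF-β itself induces, fell with log2 changes of -2.06, -1.69 and -2.23, and Nrros, which presents TGF-β1 on microglia, of -1.13, -1.40 and -1.50 in wild-type cells (limma, adjusted p at most 8.97e-05). Among genes of apoptotic cell uptake 5, 4 and 4 of 10 fell and 1 rose with each stimulus in wild-type cells; Mfge8, a bridging protein, fell with log2 changes of -1.46, -1.55 and -1.92 (limma, adjusted p at most 0.0113). Of 21 other microglia-enriched genes 11, 12 and 15 fell and 1 rose with each stimulus in wild-type cells, and 8, 4 and 8 fell in libraries labelled CB2-/-. Trem2, a lipid-sensing receptor, fell with log2 changes of -3.45, -3.77 and -3.61 in wild-type cells (limma, adjusted p at most 3.84e-11). The immediate-early list was mixed, with 8, 8 and 3 of 16 higher and 3, 5 and 6 lower. Among libraries labelled CB2-/- 6, 2 and 5 genes of the CSF1R and PU.1 axis, 5, 1 and 3 of the uptake genes and 4, 2 and 5 of the immediate-early genes fell with LPS plus interferon-γ, PolyI:C and CpG. In the order LPS plus interferon-γ, PolyI:C and CpG, the median log2 changes in wild-type cells were -0.54, -0.44 and -0.80 for the CSF1R and PU.1 axis and -0.21, -0.17 and -0.38 for the TGF-β axis. They were -0.30, -0.60 and -0.62 for the uptake genes, -0.45, -0.79 and -0.81 for the other microglia-enriched genes and 0.57, 0.10 and -0.34 for the immediate-early genes, beside 0.05, -0.06 and -0.09 for all tested genes.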

How the data were processed

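RNA of 27 libraries of primary mouse microglia was sequenced as 75 bp single-end reads, with TruSeq v2 on a HiSeq1500 or SMART-Seq2 on a NextSeq500, per the labels' protocols, which do not assign a kit to each library. The tools named in the submitters' processing notes are CASAVA 1.8, kallisto and DESeq2. No source used here names the genome build. Normalised counts, a non-negative signal per gene, were deposited by the authors. By the smallest step per library, 50.5 to 70.5% of low values were whole multiples (tolerance 0.01), so whole reads were not recovered and no count model was run. The authors also deposited a batch-corrected table on a log2-like scale, entered here as a score and used only as an alternative. The batches it corrects for are not named in the sources used here.

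Groups came from the labels. Values were taken as log2(value + 1), a scale that understates changes of low genes, and 14668 genes reaching 10 in 3 or more libraries entered limma 3.58.1 under R 4.3.3 (1 fit of 27 libraries with group and number series, eBayes with trend, two-sided, Benjamini-Hochberg over all tested genes, called at adjusted p under 0.05). There were 17 comparisons: each stimulus within each genotype, the differences of these between genotypes, unstimulated genotypes, pairs of stimuli, and the unstimulated wild-type sets. A member called lower with 1 stimulus and not another was named selective only where that pair of stimuli was itself called. Where several rows had 1 symbol, the one with the highest sum was used. No replicate pair agreed within sampling noise, so all were kept apart. Simulated data served to test the fit. They had the same spread for all genes, no difference between number series and no genes low in unstimulated cells. They do not show how the fit performs on libraries as uneven as these. The members and lists were chosen with earlier results of these data known. Members named with full values were those lower with every stimulus in both genotypes, selective losses, rises and those differing between genotypes; up to 4 examples per pathway list were taken by the size of their change, among those called with a mean of at least 100. Positions are from GENCODE M21 on GRCm38 (23933 of 23995 identifiers matched). Other settings tried were a pseudocount of 8, no filter, quantile scaling, no series term, smaller fits, weighted libraries, the batch-corrected values, omission of single libraries or of the 3 lowest in astrocyte markers, and, added after seeing the data, another unstimulated baseline. Tables and plots used Python 3.11.15, pandas 2.3.3 and matplotlib 3.10.9.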

Additional observations from a re-analysis of the deposited data

Results flagged for a closer look

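In unstimulated wild-type cells 2 values lay far from the other 5 libraries, both in replicate 4: Fcrls at 3262 normalised counts, where the others ran from 5097 to 5996, and Gas6 at 837, where they ran from 1468 to 1809. Each gap to the nearest library exceeded Dixon's 95% critical value for 6 libraries, which chance passes in about 1 of 20 groups. There were 33 tested members, and the 2 values are not shown to exceed that rate.

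The response to PolyI:C differed between the genotypes for 24 members by the test of the difference itself (limma, adjusted p under 0.05). As the log2 response in libraries labelled CB2-/- minus that in wild type, the differences were Tmem119 (4.37), Gpr34 (5.08), Olfml3 (2.83), Fcrls (1.69), Csf1r (2.11), Mertk (1.32), Gas6 (3.36), Pros1 (1.55), Tgfbr1 (1.90), Tgfbr2 (1.43), Mef2a (0.97), Mef2c (2.18), Sall1 (2.52), Golm1 (1.06), Bin1 (1.09), Rhob (2.54), Slco2b1 (6.45), Rgs10 (2.23), Plxdc2 (1.10), Susd3 (3.52) and Itgb5 (2.52), and in the other direction Spi1 (-0.80), Maf (-0.81) and Egr1 (-1.07). Of these, Golm1 lost its call in 8 fits without 1 library, Fcrls in 6 and Egr1 in 2 (without wild-type PolyI:C replicate 2 or 3). Spi1 came to -0.06 and Maf to -0.14 under quantile scaling, neither called. Against unstimulated wild-type replicates 4 to 6, Fcrls (1.58), Pros1 (0.72) and Plxdc2 (0.58) were not called.

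With LPS plus interferon-γ 11 members differed: Tmem119 (3.63), Gpr34 (2.92), Olfml3 (2.01), Csf1r (1.55), Gas6 (1.64), Tgfbr1 (1.31), Sall1 (1.27), Rgs10 (1.14) and Itgb5 (1.34), and in the other direction Mertk (-1.77) and Jun (-1.05). Gpr34 lost its call in 6 fits without 1 library. Against unstimulated wild-type replicates 4 to 6, Gpr34 (1.53), Csf1r (0.48), Gas6 (1.21), Sall1 (-0.17), Rgs10 (0.19) and Itgb5 (0.61) were not called, and Jun turned to 0.72. Without the series term Gpr34 (2.22), Csf1r (1.01), Sall1 (0.55), Rgs10 (0.67) and Jun (-0.16) were not called. On the batch-corrected values Jun (-0.51) was not called.

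With CpG 11 members differed: Gpr34 (3.81), Csf1r (1.96), Gas6 (1.85), Tgfbr1 (1.32), Sall1 (1.70), Selplg (1.08), Bin1 (0.61), Cd33 (2.71), Rhob (1.60) and Itgb5 (0.89), and in the other direction Golm1 (-1.34). Golm1 lost its call without CpG replicate 3 of the libraries labelled CB2-/- (-1.24) or without unstimulated wild-type replicate 1 (-1.11). Against unstimulated wild-type replicates 4 to 6 the CpG differences of Gpr34 (2.42), Sall1 (0.25), Selplg (-0.0949), Bin1 (0.0131), Itgb5 (0.16) and Golm1 (-0.997) were not called. Those of Sall1 (0.97), Selplg (0.49), Bin1 (0.31) and Itgb5 (0.52) were also not called without the series term, nor was that of Bin1 (0.30) on the batch-corrected values. Genotype and library number series cannot be told apart for the stimulated cells in any of these differences.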

How the results depend on the processing

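Each of 220 log2 changes of single members was recomputed under up to 9 other settings, 1926 values in all. Of these 1809 kept their direction and their side of the threshold, 71 lost the call, 37 gained one and 9 turned sign. Leaving out each library in turn gave 5940 values, of which 5777 were unchanged in call, 155 lost it, 8 gained one and 0 turned sign. The pseudocount of 8 gained 1 call and changed no other.

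Reversed values were Spi1 with LPS plus interferon-γ in wild-type cells under quantile scaling (-0.0705), and Selplg with PolyI:C without the series term (0.0236). Against unstimulated wild-type replicates 4 to 6, an alternative chosen after seeing the data, Selplg with LPS plus interferon-γ (0.28) and PolyI:C (0.61), Bin1 with LPS plus interferon-γ (0.21), Jun with LPS plus interferon-γ (-0.81), and the differences between genotypes of Sall1 (-0.17) and Jun (0.72) with LPS plus interferon-γ and of Selplg with CpG (-0.0949) also turned sign. Here the baseline is made of other libraries, between which these genes differ.

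Counts of members that moved by over 1.5 times follow, and where none is named the count stayed within that. Shares of all tested genes were not computed for the other settings or for fits without 1 library. These counts therefore have no such measure beside them. With no filter on low values 6 members were lower with all 3 stimuli in libraries labelled CB2-/-. Under quantile scaling 1 was higher with PolyI:C in wild-type cells and 1 in libraries labelled CB2-/-, 1 was lower in the difference in PolyI:C response, 1 was higher in unstimulated cells labelled CB2-/-, 5 were higher with LPS plus interferon-γ than with CpG and 4 with PolyI:C than with CpG in wild-type cells, and in libraries labelled CB2-/- 1 was higher with LPS plus interferon-γ than with PolyI:C and 8 lower than with CpG. Without the series term 1 was higher with PolyI:C and 1 with LPS plus interferon-γ than with PolyI:C in libraries labelled CB2-/-, 1 was lower in the difference in LPS response, 6 higher in that in CpG response, 15 lower and 1 higher in unstimulated cells labelled CB2-/-, and 5 higher with LPS plus interferon-γ than with CpG in wild-type cells. With only the libraries compared in the fit, 4 were higher with LPS plus interferon-γ than with CpG in libraries labelled CB2-/-.

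On the authors' batch-corrected values, 4 were higher with PolyI:C in libraries labelled CB2-/-, 14 higher in the difference in LPS response, 2 lower in that in CpG response, 19 lower and 3 higher in unstimulated cells labelled CB2-/-, 6 lower with LPS plus interferon-γ than with PolyI:C in wild-type cells, and 19 higher with PolyI:C than with CpG in libraries labelled CB2-/-. With library weights these were, where they moved, 6 higher with PolyI:C in wild-type cells, 4 lower and 15 higher in the difference in LPS response, 3 lower in that in CpG response, 13 lower and 2 higher in unstimulated cells labelled CB2-/-, 10 lower with LPS plus interferon-γ than with PolyI:C in wild-type cells, and in libraries labelled CB2-/- 13 lower and 4 higher with LPS plus interferon-γ than with CpG and 20 higher with PolyI:C than with CpG. Without the 3 wild-type libraries lowest in astrocyte markers 5 were higher with PolyI:C and 8 lower with LPS plus interferon-γ than with PolyI:C in wild-type cells, 16 higher in the difference in LPS response, 13 lower and 2 higher in unstimulated cells labelled CB2-/-, and 4 higher with LPS plus interferon-γ than with CpG in libraries labelled CB2-/-. Against unstimulated wild-type replicates 4 to 6, 5 were higher with PolyI:C in wild-type cells, 5 lower and 5 higher in the difference in LPS response, 5 lower in that in PolyI:C response and 6 higher in that in CpG response. Apart from that baseline, the cause was not tested.

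Leaving out 1 library gave 3 to 5 members higher with PolyI:C in wild-type cells, 7 to 12 lower and 1 to 3 higher with PolyI:C in libraries labelled CB2-/-, 8 to 14 higher in the difference in LPS response, 0 to 2 lower in that in CpG response, 4 to 12 lower and 0 to 1 higher in unstimulated cells labelled CB2-/-, 2 to 6 lower with LPS plus interferon-γ than with PolyI:C in wild-type cells, 1 to 2 higher in that comparison in libraries labelled CB2-/-, and 6 to 11 lower with all 3 stimuli in the latter.

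With quantile scaling the median over all tested genes shifted on the log2 scale by -0.11 (LPS plus interferon-γ) and 0.14 (CpG) in wild-type cells, by -0.12 in the difference in CpG response, and by -0.28 and -0.15 for LPS plus interferon-γ and PolyI:C against CpG in wild-type cells. No paired analysis was run, because replicate numbers follow the order of the records and the labels do not say whether they pair samples. Values near 0 (Gpr34, Slco2b1, Ltc4s) rest on few reads, which limits the size of their changes.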
